A study of Mus musculus with 4 samples.

Results

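The genes encoding the translation initiation factors were described in CD69+DP thymocytes, the CD4+CD8+ cells that have received a TCR signal and carry CD69 at the surface. The members were every listed gene whose symbol starts with Eif and a digit, apart from *Eif4a3*, which encodes an exon junction protein. These were 54 of 24421 listed genes, of which 50 were above 0 and all 50 passed the filter for testing. The cells were sorted from the thymus of 6-week-old mice on the C57BL/6 background. Control mice were Foxa1fl/flFoxa2fl/fl CD4Cre-, and Foxa1/2cKO mice carried the same floxed alleles with CD4Cre+, so that both groups share the loxP-flanked *Foxa1* and *Foxa2* alleles and only Foxa1/2cKO carries the Cre transgene. CD4Cre is driven by *Cd4* regulatory sequence and acts from the DP stage onwards. There were 2 samples per group, sorted separately from different mice. The methods also give more than 1 mouse of a genotype per sort, and whether mice were pooled in a sample is not clear from the sources used here. The comparison asks whether the genes for the machinery that starts protein synthesis differ in level when the pioneer factors Foxa1 and Foxa2 are deleted.

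Initiation places a ribosome with its first tRNA on the start codon of an mRNA. eIF2, bound to GTP, brings the initiator methionyl-tRNA to the small ribosomal subunit, which also holds eIF1, eIF1A, eIF3 and eIF5, while eIF4F binds the cap of the mRNA through eIF4E, unwinds it through the helicase eIF4A and joins the parts through the scaffold eIF4G. After the start codon is found, eIF5B joins the large subunit. The pathway is braked at the exchange factor eIF2B, when stress kinases phosphorylate the alpha subunit of eIF2, and at eIF4E, when unphosphorylated 4E-binding proteins hold it away from eIF4G. T cells raise the rate of translation after TCR signalling, and much of that control acts on the proteins rather than on the mRNA levels measured here.

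Levels are given as FPKM, the unit of the deposited table, in which the fragments of a gene are divided by its length and by a total for the library, so that genes can be compared with each other. Their steps gave whole reads for 100% of the 16069 genes above 0, and the recovered reads came to between 10396462 and 14482116 per sample. The members above 0 held 69 to 11351 reads each, and together 0.974% to 1.03% of the recovered reads of a sample. In no sample, whether control or Foxa1/2cKO, was *Foxa1* or *Foxa2* above 0, which leaves the genotypes unchecked by their values. The 8 DP thymocyte markers were all present, with mean levels between 38.6 and 712 FPKM and a summed FPKM of 2443 and 2488 for control 1 and 2 and of 2522 and 3148 for Foxa1/2cKO 1 and 2. Of the 6 erythroid markers, *Hba-a1*, *Hbb-bs* and *Hbb-bt* were at 0, and the sum was 0.608 to 1.17 for control and 1.07 to 2.67 for Foxa1/2cKO samples. The summed FPKM of the 6 B cell markers was 50.6 to 76.2 for control and 54.4 to 104 for Foxa1/2cKO samples, that of the 6 myeloid markers from 17.6 to 28.9 and from 13.8 to 26.3, and that of the 6 thymic epithelial markers from 4.89 to 6.52 and from 5.52 to 7.61. Foxa1/2cKO 2 stood apart from the other 3 samples: on the first principal component of all genes tested, with 65.3% of the variance, it lay at 28.5, and the others lay between -11.0 and -7.42. The summed FPKM of 6 genes of cycling cells was 342, 360, 402 and 125, in the order control 1, control 2, Foxa1/2cKO 1 and Foxa1/2cKO 2. The same order is kept for all values listed by sample. Because Foxa1/2cKO 2 stands apart, results are also given without it.

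Several initiation factors come as pairs of paralogues, and the coding sequences show how far the reads of a pair can be told apart. The stretches shown are the most alike aligned 60 bases of each pair, from the GENCODE vM21 transcripts on GRCm38, with bases that differ within the pair in capitals. *Eif4a1* (chromosome 11, 69666936 to 69672423) and *Eif4a2* (chromosome 16, 23107468 to 23114132) encode the eIF4A helicases. Their coding sequences were 78.0% identical, with a longest identical run of 20 bases, and the stretches cover coding bases 532 to 591 and 538 to 597.
Eif4a1: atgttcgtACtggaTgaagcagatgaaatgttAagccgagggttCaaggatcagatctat
Eif4a2: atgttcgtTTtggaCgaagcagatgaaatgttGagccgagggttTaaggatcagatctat
*Eif5a* (chromosome 11, 69916712 to 69921958) and *Eif5a2* (chromosome 3, 28781032 to 28798846) were 72.7% identical, with a longest run of 14 bases, and coding bases 94 to 153 of each are shown.
Eif5a: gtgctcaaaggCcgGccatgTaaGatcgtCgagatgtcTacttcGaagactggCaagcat
Eif5a2: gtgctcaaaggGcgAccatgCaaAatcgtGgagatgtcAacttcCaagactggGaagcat
*Eif4g1* (chromosome 16, 20672720 to 20692883) and *Eif4g3* (chromosome 4, 137991779 to 138207086), the cap-complex scaffolds, were 62.0% identical, with a longest run of 19 bases, and coding bases 2755 to 2814 and 2710 to 2769 are shown.
Eif4g1: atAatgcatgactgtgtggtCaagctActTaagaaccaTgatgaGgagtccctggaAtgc
Eif4g3: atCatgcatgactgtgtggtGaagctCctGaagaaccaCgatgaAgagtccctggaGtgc
*Eif2s3x* on the X chromosome (94188709 to 94212651) and *Eif2s3y* on the Y chromosome (1010562 to 1049134) encode the gamma subunit of eIF2. They were 86.3% identical, with a longest run of 34 bases, and coding bases 784 to 843 of each are shown.
Eif2s3x: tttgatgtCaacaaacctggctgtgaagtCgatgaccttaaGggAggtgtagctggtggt
Eif2s3y: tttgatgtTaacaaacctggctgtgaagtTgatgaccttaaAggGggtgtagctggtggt

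In each of these pairs the run without a difference was at most 34 bases, so no coding stretch of 50 bases was shared within a pair. *Eif3j1* and *Eif3j2*, which encode the loosely attached j subunit of eIF3, were the opposite case, being identical at all 786 aligned coding bases. Both were listed at 0 in all 4 samples. Since 54.8% of the 50-base stretches of *Eif3j1* and 91.8% of those of *Eif3j2* are held by another gene, and the handling of reads with several matches is not given in the sources used here, these zeros cannot be read as absence. The other members at 0 in every sample were *Eif4e1b*, a form of eIF4E known from oocytes, and *Eif2s3y*. For *Eif4e1b*, the limit set by a count of 0, taken as 3 reads, is 0.0889 to 0.123 FPKM, and for *Eif2s3y* it is 0.0482 to 0.0668 FPKM, counting error only. Of the other Y chromosome genes checked, *Ddx3y* and *Kdm5d* were at 0 in all 4 samples as well, whereas *Uty* was not at 0 in every sample. The *Xist* level was above 0 in all 4 samples, with the highest mean of the sex-linked genes checked, 94.8 FPKM. With *Eif2s3y* at 0, *Eif2s3x* was the gamma subunit gene seen here. Of the members above 0, those with the most stretches shared with pseudogenes or overlapping genes were *Eif4ebp3* (65.5%), *Eif3d* (42.1%), *Eif2s3x* (36.2%), *Eif4a1* (33.3%), *Eif1* (31.6%), *Eif3h* (26.2%) and *Eif5b* (18.2%), so their levels are uncertain. The others had at most 15.2%.

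The members covered a 110-fold range of levels. The highest mean over the 4 samples was 273 FPKM for *Eif4a1* and the lowest was 2.49 FPKM for *Eif5a2*, with a median of 62.8 FPKM beside 14.8 FPKM over all genes tested. A mean of at least 100 FPKM was reached by 18 members, most of which encode subunits of eIF3, and 5 were under 10 FPKM. The eIF3 genes summed to 1676 to 1754 FPKM in a sample and the eIF4F genes with their helpers to 1178 to 1234 FPKM, whereas the eIF2 genes summed to 62.6 to 78.4 FPKM. Of the brakes, the eIF2alpha kinases summed to 63.6 to 70.9 FPKM, and the 4E-binding proteins together with *Eif4enif1* to 144 to 157 FPKM. These sums are over unlike numbers of genes. The median level of a gene was 15.3 FPKM for the kinases and 29.0 FPKM for eIF2. The summed level of all members was 4299, 4317, 4231 and 4287 FPKM, so that Foxa1/2cKO 2 lay between the controls and Foxa1/2cKO 1.

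**Figure D1:**
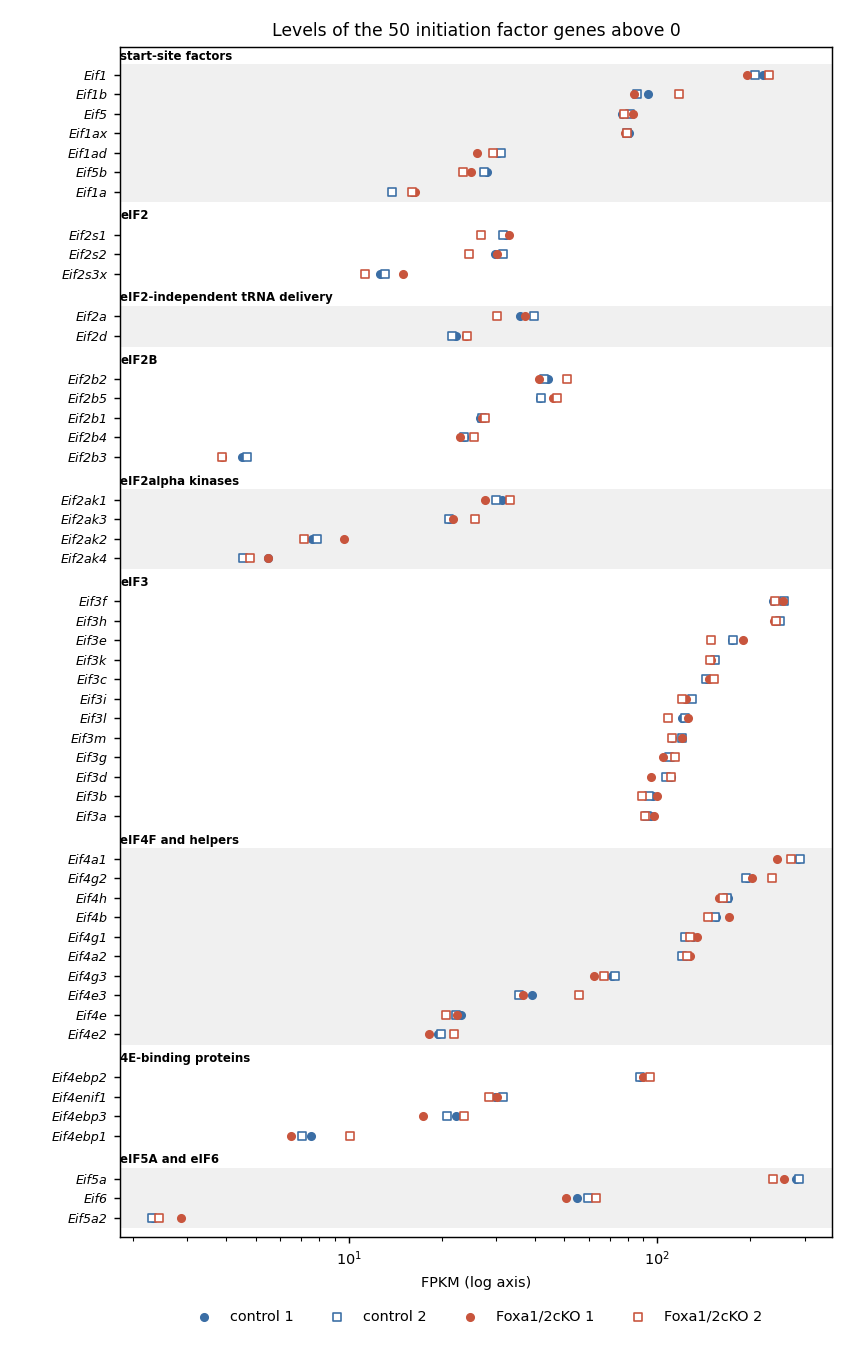
FPKM (log axis) of the 50 initiation factor genes above 0, by complex and, within a complex, by falling mean level, with 1 symbol for each of the 4 samples. The eIF3 genes lie in a narrow band between 94.2 and 247 FPKM on average, and for most genes the symbols of the 2 groups lie among each other.

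No initiation factor gene passed the test between Foxa1/2cKO and control. In limma on log2(FPKM + 1), with Benjamini-Hochberg adjustment over all 10776 genes tested, 0 of 50 members passed an adjusted p of 0.05, where the background was 0.00928% of genes, that is 1 gene. None passed at an unadjusted p of 0.05 either, where 4.55% of all genes did, and limma-voom on the recovered reads gave 0 members at each threshold. The adjusted p of the members ran from 0.863 to 0.996. The groups did not overlap for 9 members that lay higher in Foxa1/2cKO (18%) and 8 that lay lower (16%), against a background of 18.9% and 17.8% of all genes tested. On the log2 scale 24 members had a value above 0 and 26 below, with a median of -0.0049, and the median of all genes was 0.0051. The median absolute log2 fold change was 0.0645 for the members and 0.112 for all genes tested. The members also differed less within each group. Between the controls the median absolute log2 difference was 0.0400 for the members and 0.0762 for all genes tested. Between the Foxa1/2cKO samples it was 0.151 and 0.1998. Whether the members respond less to the deletion than other genes was not tested. In RNA of a sorted population, fewer cells of a type and less RNA per cell cannot be told apart.

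The intervals show what size of change the samples allow. On the log2(FPKM + 1) scale, the 95% interval of every one of the 50 members lay within 2-fold. That of 47 lay within 1.5-fold and that of 10 within 1.2-fold. The 3 with an interval past 1.5-fold on this scale were *Eif1b*, *Eif4e3* and *Eif4ebp1*. For low genes the scale narrows the interval, so a change in FPKM can be larger than these bounds. For *Eif5a2* the log2 fold change was 0.13, and 0.18 with a pseudocount of 0.1. The lowest bound of all was -0.52 on the log2 scale, for *Eif2a*, and the highest was 0.83, for *Eif4e3*. These intervals rest on 2 residual and 2.69 prior degrees of freedom. The spread was unequal between the groups: the median absolute log2 difference over the members between the controls was 0.0400, and between the Foxa1/2cKO samples it was 0.151, and 38 of 50 members differed more between the latter. The fold change kept its sign without each sample in turn for 26 members, of which 11 were higher and 15 lower.

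**Figure D2:**
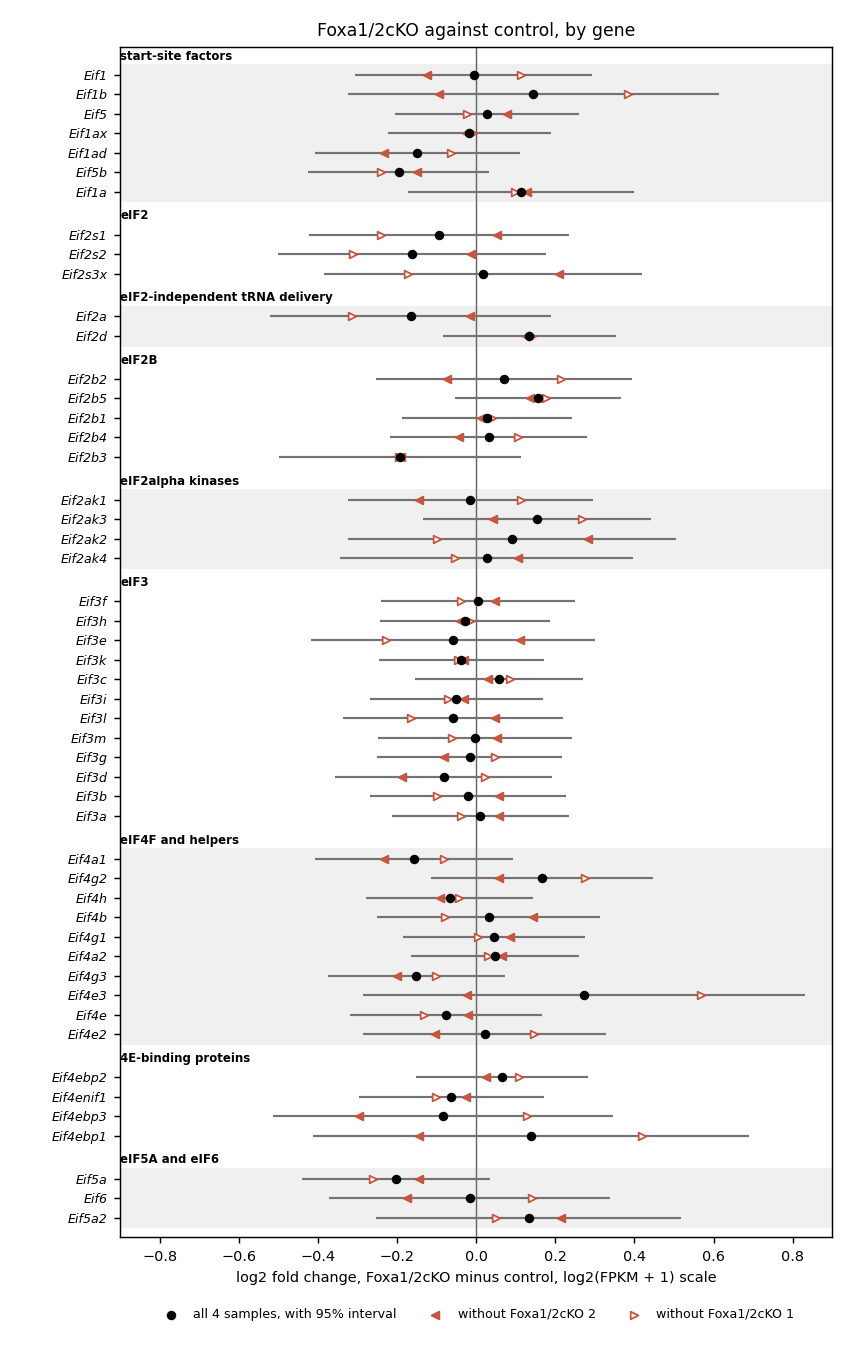
Log2 fold change (Foxa1/2cKO minus control, log2(FPKM + 1) scale) of each of the 50 tested members, with its 95% interval as a line, and the value without Foxa1/2cKO 1 or without Foxa1/2cKO 2 as triangles. Every interval crosses 0, and the triangles of many members, among them *Eif4e3* and *Eif4ebp1*, point to opposite sides of 0.

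The group of start-site factors includes genes whose proteins help to find the first codon and commit the ribosome to it. *Eif1ad* is counted in the group, and its role was not examined. *Eif1*, which guards start codon choice, had the highest level with a mean of 213 FPKM over the 4 samples, and *Eif1a*, a form of eIF1A, the lowest with 15.5 FPKM. Of the 7 genes, 3 had a log2 fold change above 0 and 4 below, between -0.20 and 0.14, with a median of -0.01. *Eif5b* encodes the GTPase that joins the ribosomal subunits. Its level was 28.1, 27.5, 25.0 and 23.4 FPKM, so that both Foxa1/2cKO samples lay below both controls. The log2 fold change was -0.20 ± 0.09 (SE), the smallest unadjusted p of all members, and the adjusted p in limma was 0.863, with an interval from 0.75-fold to 1.02-fold. The exons of *Eif5b* overlap those of *Rev1*. *Eif1b* was highest in the sample that stands apart, with 93.2, 85.9, 83.7 and 117 FPKM. The share of *Eif1* in the sum of *Eif1* and *Eif1b* was 70.2%, 70.7%, 70.0% and 66.3%, the lowest in Foxa1/2cKO 2.

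eIF2 carries the initiator tRNA, and none of its 3 genes above 0 passed the test. *Eif2s1*, the alpha subunit that the stress kinases phosphorylate, had 32.2, 31.6, 33.1 and 26.9 FPKM, and *Eif2s2*, the beta subunit, had 29.7, 31.5, 30.3 and 24.5 FPKM. *Eif2s3x* was lower than both, with 12.6, 13.1, 15.0 and 11.3 FPKM. In all 3 genes Foxa1/2cKO 2 was the lowest sample and Foxa1/2cKO 1 lay at or above at least 1 control, so that the groups overlapped. The log2 fold changes were -0.09 ± 0.13 (SE) for *Eif2s1*, -0.16 ± 0.13 for *Eif2s2* and 0.02 ± 0.15 for *Eif2s3x*, with adjusted p in limma from 0.863 to 0.988. Without Foxa1/2cKO 2 they were 0.05, -0.01 and 0.21, and without Foxa1/2cKO 1 they were -0.24, -0.31 and -0.17. Other proteins can deliver the tRNA without eIF2: *Eif2a* ranged from 30.2 to 40.0 FPKM with overlapping groups, and *Eif2d* had 22.2, 21.6, 24.0 and 24.2 FPKM, both Foxa1/2cKO samples above both controls. Its log2 fold change was 0.13 ± 0.08 (adjusted p in limma 0.863).

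eIF2B recharges eIF2 with GTP and has 5 different subunits, whose genes were expressed at unequal levels. *Eif2b2* was the highest with a mean of 44.9 FPKM, *Eif2b5* and *Eif2b1* followed, and *Eif2b3* was the lowest with 4.24 FPKM, a 10.6-fold range. *Eif2b5* encodes the catalytic epsilon subunit. Its level was 41.7, 42.0, 46.1 and 47.4 FPKM, both Foxa1/2cKO samples above both controls, with a log2 fold change of 0.16 ± 0.08 (SE) and an adjusted p in limma of 0.863. *Eif2b3* encodes the gamma subunit, which pairs with epsilon. It had 4.50, 4.67, 3.89 and 3.88 FPKM from 169 to 271 reads, with a log2 fold change of -0.19 ± 0.12 (adjusted p in limma 0.863). Both genes kept their sign without each sample, and the values without Foxa1/2cKO 2 were 0.14 and -0.19. The ratio of *Eif2b5* to *Eif2b3* was 9.26, 9.00, 11.8 and 12.2, and the groups did not overlap. The exact permutation test of 2 samples against 2 gave the smallest two-sided p it allows, 0.333. The separation in this ratio, and with it this p, follows from these genes lying apart in opposite directions and adds no further support.

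Of the eIF2alpha kinases, *Eif2ak1* and *Eif2ak3* held the larger part of the level. *Eif2ak1* (HRI, known as the kinase that senses heme) had 31.3, 30.1, 27.7 and 33.3 FPKM. *Eif2ak3* (PERK, which senses unfolded protein in the endoplasmic reticulum) had 21.2, 21.1, 21.8 and 25.6 FPKM. *Eif2ak2* (PKR, which binds RNA duplexes) had 7.60, 7.90, 9.63 and 7.17 FPKM, and *Eif2ak4* (GCN2, which senses uncharged tRNA) had 5.50, 4.56, 5.47 and 4.79 FPKM. The groups were apart for *Eif2ak3* alone, and there the nearest samples were close to each other. The log2 fold changes were -0.01 ± 0.12, 0.15 ± 0.11, 0.09 ± 0.16 and 0.03 ± 0.14 (SE), with adjusted p in limma from 0.863 to 0.986. The value of *Eif2ak3* was 0.04 without Foxa1/2cKO 2, and those of *Eif2ak2* and *Eif2ak4* were below 0 without Foxa1/2cKO 1 (-0.10 and -0.05).

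eIF3, the largest initiation factor, bridges the small subunit and the mRNA. Its 12 genes above 0 had means from 94.2 FPKM for *Eif3a* to 247 FPKM for *Eif3f*, a 2.62-fold range. Their log2 fold changes ran from -0.08 for *Eif3d* to 0.06 for *Eif3c*, with 3 above 0 and 9 below and a median of -0.02. *Eif3c* was higher in both Foxa1/2cKO samples than in both controls and *Eif3k* was lower, each by a log2 value of at most 0.06, and the other 10 overlapped. *Eif3e*, the subunit with the widest spread, had 174, 176, 189 and 149 FPKM.

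eIF4F and its helpers bind and unwind the capped end of the mRNA, and the helicase gene *Eif4a1* was at the top of the group. *Eif4a1* had 285, 289, 244 and 272 FPKM, lower in both Foxa1/2cKO samples, with a log2 fold change of -0.16 ± 0.10 (SE) and an adjusted p in limma of 0.863. *Eif4a2* had 124, 120, 128 and 125 FPKM, with the groups apart in the other direction and a log2 fold change of 0.05 ± 0.08. *Eif4a1* therefore made up 69.8%, 70.6%, 65.7% and 68.6% of the sum of both genes. The *Eif4a1* to *Eif4a2* ratio was 2.31, 2.41, 1.91 and 2.18, with an exact two-sided permutation p of 0.333, the smallest possible. Here too the separation and the p follow from the genes lying apart in opposite directions. The helpers that stimulate the helicase were near each other in level: *Eif4b* had 155, 153, 170 and 146 FPKM, and *Eif4h* had 169, 168, 158 and 164 FPKM. Their log2 fold changes were 0.03 ± 0.11 and -0.07 ± 0.08, with adjusted p in limma of 0.964 and 0.884.

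Among the scaffolds, *Eif4g2* (DAP5, which lacks the eIF4E-binding part) was the highest, with 195, 194, 203 and 236 FPKM, above *Eif4g1* with 131, 123, 135 and 127 FPKM. *Eif4g3* was the lowest, with 71.2, 72.7, 62.5 and 67.0 FPKM. *Eif4g2* lay higher in both Foxa1/2cKO samples, with a log2 fold change of 0.17 ± 0.11 (SE), and *Eif4g3* lay lower, with -0.15 ± 0.09, while *Eif4g1* overlapped at 0.05 ± 0.09. The adjusted p in limma was 0.863 for *Eif4g2* and *Eif4g3* and 0.928 for *Eif4g1*. As a share of the 3 scaffolds, *Eif4g3* was 17.9% and 18.7% in the controls and 15.6% in each Foxa1/2cKO sample, and *Eif4g2* was 49.2% and 49.8% against 50.7% and 54.8%. The *Eif4g2* difference was 0.06 without Foxa1/2cKO 2, and that of *Eif4g3* was -0.20.

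The cap-binding genes were below the scaffolds and the helicases in every sample. *Eif4e*, the cap-binding protein of eIF4F, had 23.2, 22.2, 22.4 and 20.6 FPKM, and *Eif4e2* (4EHP, known as a repressor that holds the cap) had 19.4, 19.9, 18.2 and 21.9 FPKM. *Eif4e3* had 39.2, 35.7, 36.8 and 55.9 FPKM. Foxa1/2cKO 2 was far above the other 3 samples, and Foxa1/2cKO 1 lay between the controls. The log2 fold change of *Eif4e3*, 0.27 ± 0.21 (SE) with an adjusted p in limma of 0.863, was the largest of all members, and without Foxa1/2cKO 2 it was -0.02. For *Eif4e* and *Eif4e2* it was -0.08 ± 0.09 and 0.02 ± 0.12, with adjusted p in limma of 0.886 and 0.979. The sum of *Eif4g1* and *Eif4g3* was 8.72, 8.81, 8.81 and 9.43 times that of *Eif4e*, in which the nearest samples of the groups hardly differed, and the exact two-sided permutation p was 0.333.

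**Figure D3:**
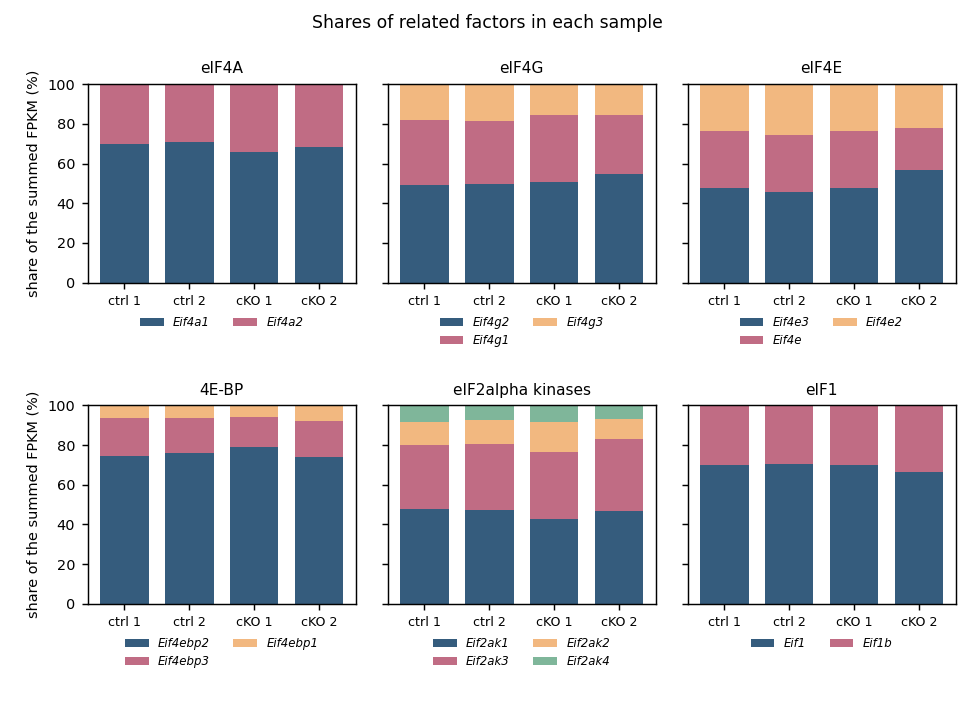
Share of the summed FPKM (%) that each gene holds among related factors, in each control (ctrl) and Foxa1/2cKO (cKO) sample. The largest part of the eIF4A, eIF4G and 4E-BP sums is held by *Eif4a1*, *Eif4g2* and *Eif4ebp2* in all 4 samples, and the *Eif4e3* share of the eIF4E genes is 56.8% in Foxa1/2cKO 2 and 45.9% to 47.9% in the others.

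The 4E-binding proteins keep eIF4E from the scaffold, and *Eif4ebp2* was the main gene, with 88.1, 87.9, 89.5 and 94.9 FPKM. *Eif4ebp3* had 22.4, 20.8, 17.4 and 23.7 FPKM, and *Eif4ebp1* had 7.56, 7.06, 6.52 and 10.1 FPKM from 69 to 111 reads. *Eif4enif1* (4E-T, which carries eIF4E into the nucleus) had 29.7, 31.7, 30.1 and 28.5 FPKM. Only *Eif4ebp2* had groups apart, and its nearest samples were close to each other. The log2 fold changes were 0.07 ± 0.08, -0.08 ± 0.16, 0.14 ± 0.21 and -0.06 ± 0.09 (SE), with adjusted p in limma from 0.891 to 0.928. *Eif4ebp1* was 0.42 without Foxa1/2cKO 1 and -0.14 without Foxa1/2cKO 2, so its direction was set by which Foxa1/2cKO sample was used. The summed 4E-BP genes were 5.09, 5.21, 5.07 and 6.24 times the level of *Eif4e*, with Foxa1/2cKO 2 alone above the rest and an exact two-sided permutation p of 1.

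*Eif5a*, whose protein carries the modified lysine hypusine and helps ribosomes past difficult peptide bonds, was among the 2 highest members. It had 281, 287, 257 and 237 FPKM, lower in both Foxa1/2cKO samples, with a log2 fold change of -0.20 ± 0.09 (SE), an interval from 0.74-fold to 1.02-fold and an adjusted p in limma of 0.863. Its paralogue *Eif5a2*, aligned with it above, had 2.33, 2.32, 2.86 and 2.44 FPKM from 135 to 174 reads. *Eif5a2* was above both controls in both Foxa1/2cKO samples, with 0.13 ± 0.15 (adjusted p in limma 0.873), and held 0.823%, 0.801%, 1.10% and 1.02% of the eIF5A sum. *Eif6*, which keeps the large subunit free until it is needed, ranged from 50.6 to 63.3 FPKM, with the lowest and the highest value in the Foxa1/2cKO samples.

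The members lay differently in the 2 Foxa1/2cKO samples. Against the mean of the controls, the median log2 difference of the eIF2 genes was 0.05 in Foxa1/2cKO 1 and -0.24 in Foxa1/2cKO 2, that of the 4E-binding proteins was -0.08 and 0.12, and that of the eIF2B genes was -0.04 and 0.11. In the eIF3 genes it was 0.04 and -0.04. When Foxa1/2cKO 1 was left out, so that Foxa1/2cKO 2 alone was set against the controls and its spread was taken to be theirs, limma called 11 of 50 members (22.0%) at an adjusted p of 0.05, beside 2559 of all 10776 genes tested (23.7%). Of these, *Eif4e3*, *Eif1b*, *Eif4g2*, *Eif4ebp1* and *Eif2ak3* were higher in Foxa1/2cKO 2, and *Eif5a*, *Eif3e*, *Eif2s2*, *Eif2a*, *Eif2s1* and *Eif5b* were lower. Of the 11, *Eif4e3*, *Eif1b*, *Eif4ebp1*, *Eif3e* and *Eif2s1* had the opposite sign in Foxa1/2cKO 1. The low sum of the cycling genes and the high sum of the DP thymocyte markers in Foxa1/2cKO 2, given above, move with these values, and their part in them was not tested. Without Foxa1/2cKO 2, limma called 19 of 10776 genes (0.176%) and 0 members.

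**Figure D4:**
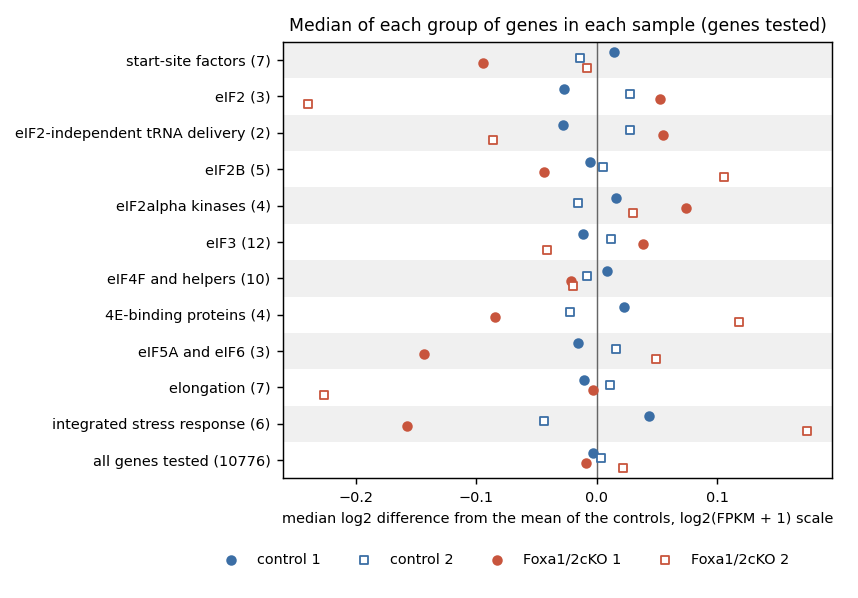
Median log2 difference from the mean of the controls (log2(FPKM + 1) scale) over the tested genes of each complex, with the number of genes in parentheses, in each of the 4 samples, beside the elongation and integrated stress response genes and all genes tested. The controls lie between -0.04 and 0.04 throughout, and in most rows the Foxa1/2cKO samples lie on opposite sides, as at -0.24 and 0.05 for eIF2.

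The promoters of the members were read for the forkhead core, the letters that Foxa proteins and other forkhead factors bind, searched as TGTTTAC and TATTTAC on both strands. The windows run from 250 bases before to 50 after each start in RefSeq on GRCm38.p6, and 42 members had at least 1. Of the 40 among them that were above 0, none had a match, and of the members at 0 *Eif2s3y* had 1. A match was in 4.73% of the 8180 tested genes with a window, in 7.35% of all 27025 genes and in 6.54% of all 32851 windows. What the members' windows did hold was CG, counted in the window with the most CG for each gene. The median was 24 CG over the 40 members above 0 (9 to 50), beside 23 in the tested genes and 8 in all genes. To show this, the 100 bases before the start are given for the member with the smallest p in each direction and for the most abundant one, on the strand of the gene, with CG in capitals. *Eif5b* is at chr1:37997910-37998009 on the plus strand, *Eif2b5* at chr16:20498717-20498816 on the plus strand and *Eif4a1* at chr11:69672424-69672523 on the minus strand. The listed gene of *Eif2b5* begins at 20498795, upstream of the start used for its window, so the end of its run lies within the gene.
Eif5b: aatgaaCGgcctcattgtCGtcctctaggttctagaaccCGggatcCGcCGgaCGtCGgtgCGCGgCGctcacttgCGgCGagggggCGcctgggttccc
Eif2b5: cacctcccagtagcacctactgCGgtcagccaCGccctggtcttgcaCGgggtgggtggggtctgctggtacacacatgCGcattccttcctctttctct
Eif4a1: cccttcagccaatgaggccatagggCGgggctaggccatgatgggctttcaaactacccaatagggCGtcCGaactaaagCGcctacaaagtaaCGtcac
These runs held 13, 4 and 5 CG. A match would describe letters and not a bound site, and no match says only that these letters are not in the window.

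The rest of the translation machinery and its regulators, 40 listed genes of which 35 were tested, had 13 log2 fold changes above 0 and 22 below, and 0 passed an adjusted p of 0.05 in limma. At an unadjusted p of 0.05 the count was 1 of 35, where 4.55% of all genes tested passed. The gene was *Ppp1r15a* (GADD34, the subunit that directs dephosphorylation of eIF2alpha). It had 9.85, 11.4, 7.74 and 7.80 FPKM, lower in both Foxa1/2cKO samples, with a log2 fold change of -0.40 ± 0.11 (SE), an unadjusted p of 0.0180 and an adjusted p in limma of 0.863. Its value without Foxa1/2cKO 2 was -0.41. The other tested genes of the integrated stress response, *Atf4*, *Ddit3*, *Atf5*, *Sesn2* and *Ppp1r15b*, had log2 fold changes from -0.04 to 0.14, with 3 of them above 0. The 7 genes listed under elongation were all below 0, where 5253 of all 10776 genes tested were. The groups did not overlap for 2 of the 7. The 7 had a median of -0.09, which was -0.0035 without Foxa1/2cKO 2, and the highest was *Eef1e1* with -0.0034. The smallest p among them belonged to *Eef1g*, a subunit of the complex that recharges eEF1A, with 166, 176, 156 and 131 FPKM and a log2 fold change of -0.26 ± 0.12 (adjusted p in limma 0.863). In the other lists the smallest p belonged to *Ddx3x*, an RNA helicase that helps initiation, with 106, 110, 139 and 120 FPKM and 0.25 ± 0.11. *Paip2*, an inhibitor of poly(A)-binding protein, had 157, 158, 164 and 192 FPKM and 0.17 ± 0.11. *Larp1*, which binds mRNAs of the ribosomal proteins, had 47.8, 49.9, 47.6 and 36.4 FPKM and -0.22 ± 0.15. The groups did not overlap for these genes, whereas they did for *Etf1*, the release factor that reads stop codons, with 50.7, 52.5, 55.0 and 45.6 FPKM and -0.04 ± 0.12. Their adjusted p in limma ran from 0.863 to 0.950. Without Foxa1/2cKO 2 the log2 fold changes were -0.13 for *Eef1g*, 0.36 for *Ddx3x*, 0.06 for *Paip2*, -0.04 for *Larp1* and 0.09 for *Etf1*. Of the 35 tested genes, 6 lay higher in Foxa1/2cKO without overlap and 7 lower, beside 18.9% and 17.8% of all genes tested.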

How the data were processed

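Per the labels and the methods, RNA of CD69+CD4+CD8+ cells sorted from control and Foxa1/2cKO thymus was sequenced, 2 samples per group. The submitters' processing notes name mm10, TopHat, Picard and DESeq2, and the methods give RefSeq genes and counting with HTSeq in union mode. Whether the gene counts used strand, and which step made the FPKM, is not given in the sources used here. The authors deposited FPKM, already scaled between samples. Whole reads were recovered from their steps for 100% of the genes above 0 (tolerance 0.002), and the totals behind the FPKM were proportional to median-of-ratios size factors. The file had 27 symbols turned into dates.

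Since the values are not counts, limma 3.58.1 in R 4.3.3 was fitted to log2(FPKM + 1) with a mean-variance trend, in place of the count test of the methods, over the 10776 genes that reached an FPKM of 1 in 2 or more samples, with genotype as the only term and Benjamini-Hochberg adjustment. Fold changes on this scale understate the change of low genes. The main fit was tested on simulated data in which every sample had the spread of the controls. The Foxa1/2cKO samples differed more, so this does not show how the fit behaves at their spread. P-values measure the spread between 2 samples per group. The members, complexes and lists were chosen with earlier results of these data known. Values by sample are given for eIF2, its kinases, eIF4F with helpers and the 4E-binding proteins, for the 5 members per direction with the smallest p among those whose groups did not overlap, and for the gene with the smallest p in each other list. *Eif1b*, *Eif3e*, *Eif2a* and *Eif6* were added after their values were seen. Coding sequences were aligned with Biopython 1.88, and shared stretches of 50 bases were counted on the longest annotated transcript against all GENCODE vM21 transcripts. The 13 alternatives were other pseudocounts, filters, scalings, a length correction, a replicate block, limma-voom and leaving out each sample. Exon usage was not analysed here. Tables used pandas 2.3.3 and scipy 1.17.1, and figures matplotlib 3.10.9, in Python 3.11.15.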

Additional observations from a re-analysis of the deposited data

How the results depend on the processing

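With 2 samples per group, the intervals of 47 of 50 members lay within 1.5-fold on the log2(FPKM + 1) scale. Those of only 10 lay within 1.2-fold, so changes of 1.2-fold are not excluded for the other members. For low genes the changes in FPKM that are allowed are larger than on this scale. The count of members past an adjusted p of 0.05 was 0 under every alternative except leaving out 1 sample, where it ran from 0 to 11 (11 without Foxa1/2cKO 1), and the count at an unadjusted p of 0.05 was 1 when scaled to all recovered reads and 1 with the length correction, and ran from 0 to 14 when leaving out 1 sample (14 without Foxa1/2cKO 1 and 9 without Foxa1/2cKO 2). Over all genes the 1 call became 0 with a pseudocount of 0.1, without a filter, with at least 10 reads in every sample, when scaled to all recovered reads and in limma-voom, and 0 to 2559 when leaving out 1 sample (2559 without Foxa1/2cKO 1 and 19 without Foxa1/2cKO 2). For the other translation genes these ranges were 0 to 11, and 0 to 20 at the unadjusted p.

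The median log2 fold change of the members was -0.0175 with upper-quartile scaling, -0.0395 scaled to all recovered reads and 0.0047 with the length correction, with or without the replicate block, and -0.0205 to -0.0045 when leaving out 1 sample. Scaled to all recovered reads the median of all genes was -0.0265. The median of the eIF4F genes was 0.0142, -0.0074 and 0.00034 under the same alternatives, and that of the kinases was 0.0293 scaled to recovered reads. When leaving out 1 sample, the medians ran from -0.0948 to -0.0058 for the start-site factors, 0.0302 to 0.103 for the kinases, -0.0521 to 0.0379 for eIF3, -0.0216 to 0.0227 for eIF4F, -0.0845 to 0.118 for the 4E-binding proteins and -0.144 to 0.0491 for eIF5A with eIF6. The cause of these shifts was not tested.

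Of the named genes, scaling to all recovered reads turned the sign of *Eif2s3x* (-0.0141), *Eif2ak4* (-0.0024), *Eif4b* (-0.0031) and *Eif4e2* (-0.0117), and the length correction, with or without the replicate block, that of *Eif2ak4* (-0.0079) and *Eif4e2* (-0.0086). When leaving out 1 sample the value ran from -0.24 to 0.0528 for *Eif2s1*, -0.173 to 0.208 for *Eif2s3x*, -0.143 to 0.114 for *Eif2ak1*, -0.099 to 0.28 for *Eif2ak2*, -0.0863 to 0.14 for *Eif2ak4*, -0.0799 to 0.14 for *Eif4b*, -0.103 to 0.15 for *Eif4e2*, -0.0235 to 0.568 for *Eif4e3*, -0.144 to 0.42 for *Eif4ebp1* and -0.30 to 0.128 for *Eif4ebp3*.

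The replicate numbers are shared by the groups, but nothing ties same-numbered samples together, and their deviations correlated at -0.0587 over the genes, with 2 pairs only. With the replicate block the members' median stayed at -0.0049 and 0 members were called, so that it changed no call.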
